A study of Danio rerio with 2 samples.

Results

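The mitotic blood stem and progenitor cells described here are 68 of 2739 cells kept from zebrafish tails. They were chosen from their own RNA. A kept cell had at least 500 genes and under 10% mitochondrial unique molecular identifiers (UMIs, each standing for 1 captured RNA molecule). The blood gate asked for at least 3 UMIs of the blood stem cell genes myb, runx1 and gata2b together, under 2 of the erythroid regulator gata1a and under 2 of the endothelial cadherin cdh5, all per 10000 UMIs of the cell. Within that gate, the mitotic cells held at least 3 UMIs per 10000 of nusap1, top2a and mki67 together, and the non-mitotic cells held fewer. The library labelled isl1-derived gave 61 mitotic and 217 non-mitotic blood cells, and the library labelled other gave 7 and 17.

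In zebrafish, blood stem cells form from the floor of the dorsal aorta and then move to the caudal haematopoietic tissue in the tail, a venous niche in which they lodge and divide. A cell preparing to divide loads the MCM helicase on its origins in G1, copies its DNA and makes histones in S phase, and then builds the spindle that separates the chromosomes in mitosis. The 3 genes of the mitotic gate serve that last part of the cycle, since nusap1 bundles spindle microtubules, top2a untangles sister DNA and mki67 coats mitotic chromosomes, although top2a and mki67 RNA is already made in S phase.

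Embryos of strain AB carried TgBAC(isl1:TagRFP) and Tg(dab2:EGFP), and tails were taken at 48 h post fertilisation. Live EGFP+ cells were sorted by their TagRFP. Those with TagRFP carry the label of isl1-derived endothelial cells, and those without it are labelled as the rest of the endothelium. From each sort came 1 library of pooled tails, made with 10x Genomics 3' reagents (v3.1), and all embryos of both fractions carried both reporters. With 1 library per fraction no test exists, so every interval below is a 95% interval that covers counting error only, and no difference between libraries was tested.

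The library labelled isl1-derived held 26865577 UMIs in 2072 barcodes and the library labelled other 5698957 UMIs in 730 barcodes, with 0 barcodes in common. The reporter goes against the labels. TagRFP stood at 2.68 UMIs per 1000000 of a sum (CPM) among the cells kept from the library labelled isl1-derived and at 136 CPM among those of the library labelled other, and isl1 at 1.94 and 136 CPM. Each library is therefore called by its label, and a direction between libraries carries this conflict. The mitotic blood cells add little to it, with 2 TagRFP UMIs in the 61 cells and 0 in the 7. They were also poor in the sorted reporter, at 44.9 CPM of GFP against 71.0 CPM in non-mitotic blood cells and 1117 CPM in mitotic endothelial cells, all with the isl1-derived label.

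The blood genes of the gate chose both classes, so their levels are a description and no check of the label. The gene myb, a transcription factor that blood stem cells need, was at 342 CPM in mitotic and 333 CPM in non-mitotic cells (library labelled isl1-derived). The gene runx1, which drives the emergence of blood from endothelium, was at 67.4 and 77.9 CPM, and gata2b, which acts above runx1 in the zebrafish aorta, at 156 and 84.9 CPM, with 19.1% of the mitotic gata2b UMIs in 1 cell. Under the label other, gata2b was at 26.8 CPM in mitotic and 27.5 CPM in non-mitotic cells, from 4 and 7 UMIs. Of the label's own markers, runx3 does not mark these cells. It had 30 UMIs in 14 of 61 mitotic cells and 68 UMIs in 24 of 217 non-mitotic cells, which is 23.0% and 11.1% of them, and 4.92% and 4.83% after thinning to 5000 UMIs per cell. The integrin gene itga2b (CD41), a marker of zebrafish thrombocytes and of blood stem cells, had 0 UMIs in both. The stem cell receptor gene kita had 3 UMIs in mitotic and 4 UMIs in non-mitotic cells.

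As chosen by the rule, nusap1 was at 132 CPM in mitotic and 3.29 CPM in non-mitotic cells, top2a at 238 and 5.96 CPM, and mki67 at 482 and 65.2 CPM, all in the library labelled isl1-derived. All 61 mitotic cells held mki67, 56 held top2a, 48 held nusap1 and 45 held all 3. The non-mitotic cells were not at 0, since 122 of 217 (56.2%) held an mki67 UMI. The cells just inside the minimum had 3.03, 3.26 and 3.37 UMIs per 10000 and those just outside had 2.98, 2.73 and 2.73. There were 24 cells between 2 and 4 per 10000 in the library labelled isl1-derived, where the gate thus marks a range and not a separate type. The library labelled other had 1 such cell, with 3.58 just inside the minimum and 1.52 just outside.

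Mitotic cells made up 21.9% of the blood gate in the library labelled isl1-derived (61 of 278, Clopper-Pearson interval 17.2 to 27.3%) and 29.2% in the library labelled other (7 of 24, 12.6 to 51.1%). The same minimum held for 6.29% of endothelial cells in the library labelled isl1-derived (83 of 1319, 5.04 to 7.74%) and for 5.34% in the library labelled other (31 of 580, 3.66 to 7.50%). Endothelial cells here had at least 2 UMIs of cdh5 and were under the blood and gata1a minimums. The share was thus higher in blood than in endothelial cells of both libraries. These intervals cover counting error only, and the difference was not tested. Cells that passed the blood minimum but also held cdh5 stood near the endothelial share, at 5.43% (5 of 92) and 10.5% (2 of 19). Depth differed, with a median of 33699 UMIs per mitotic blood cell, 22077 per non-mitotic blood cell and 7936 per mitotic endothelial cell in the library labelled isl1-derived. Cells were also thinned to 5000 UMIs before gating, with shallower cells left out. The blood shares were then 25.8% of 221 and 33.3% of 24 cells, and the endothelial shares 6.73% of 1040 and 4.95% of 404 cells.

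The next comparison set mitotic against non-mitotic blood cells across all genes, to describe what else the cells of the mitotic gate carry. UMIs were summed over the cells and scaled to CPM, and 5253 genes had at least 100 UMIs over both sums together in the library labelled isl1-derived. At least 2-fold higher were 148 genes (2.82%) and at least 2-fold lower 85 genes (1.62%). The 148 include the gate genes nusap1, top2a and mki67, whose direction the gate fixed. Since the cells were chosen on these counts, the values are a description. Cells of the library labelled other were chosen by the same gate, so its directions are a description too. In the library labelled other, 89 of the 148 higher genes had at least 10 UMIs and 83 of them were higher there too, while 56 of the 85 lower genes had as many and 41 were lower. Of all 3977 genes with that many UMIs, 1852 were higher there and 2125 lower. With the minimum of 100 UMIs applied to that library itself, 413 genes were measured, of which 5.08% were at least 2-fold higher, 2.42% at least 2-fold lower and 9.69% at least 1.5-fold higher in mitotic cells.

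Genes of the spindle, the kinetochore and cytokinesis were the highest group. Of the 53 on the list, 29 were measured and all 29 were at least 1.5-fold higher in mitotic cells, where 6.43% of all measured genes were. Their ratios ran from 2.03 to 29.5, with a median log2 ratio of 2.81 against -0.02 over all genes. The list holds none of the 3 gate genes, but its genes are used in the same phase of the cycle as they are. The UMI minimum also favours this count, since some members passed it mainly through the mitotic cells, as cenpe did with 93 and 8 UMIs. The count of 29 is therefore a description. Summed over the 50 list genes found in the data, measured or not, the levels were 3024 CPM in mitotic and 441 CPM in non-mitotic cells.

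Among the kinetochore and spindle motors, cenpe, the kinesin that slides chromosomes to the plate, was at 48.6 CPM in mitotic and 1.65 CPM in non-mitotic cells (ratio 29.5, 14.4 to 70.4). The kinetochore gene cenpf was at 112 and 4.11 CPM (27.2, 17.2 to 45.4). The motor kif11, which pushes the spindle poles apart, was at 109 and 4.94 CPM (22.1, 14.5 to 35.3). These genes were nearly silent outside the gate, with cenpe seen in 38 of 61 mitotic and 8 of 217 non-mitotic cells. The other leading spindle genes were tacc3, a microtubule stabiliser (ratio 25.9), aspm of the spindle pole (19.1), tpx2, which activates Aurora A (14.2), and the minus-end motor kifc1 (14.5). The gene aurkb, the kinase that checks chromosome attachment, was at 193 CPM in mitotic and 27.4 CPM in non-mitotic cells, and bub3, a checkpoint subunit used by cells in every phase, at 134 and 54.5 CPM.

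The kinases and the destruction machinery of mitotic entry and exit followed the same order. Cyclin B1 (ccnb1) was at 201 CPM in mitotic and 12.1 CPM in non-mitotic cells (16.6, 12.6 to 22.2), its partner kinase cdk1 at 224 and 18.3 CPM, and plk1, a kinase of mitotic entry, at 120 and 6.38 CPM. The activators of the anaphase-promoting complex were as far apart, with cdc20 at 133 and 9.25 CPM and ube2c, the ubiquitin-conjugating enzyme of that complex, at 246 and 18.3 CPM. The CDK subunit gene cks2 had a ratio of 13.3. Over the list of cyclins, CDKs and their regulators, 14 of 28 measured genes were at least 1.5-fold higher and 2 at least 1.5-fold lower, against 6.43% and 6.38% of all genes. Of those lower, ccnd2a, a cyclin D gene of G1, was at 56.9 CPM in mitotic and 93.8 CPM in non-mitotic cells (0.607, 0.488 to 0.750).

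Genes that pack chromosomes were higher by smaller ratios. On the chromatin list 17 of 44 measured genes were at least 1.5-fold higher, where 6.43% of all genes were, and 0 lower. The condensin subunits ncapd2, ncapg and ncaph had ratios of 6.58, 5.74 and 7.21, and kmt5ab, a histone H4 methyltransferase, had 23.1. The abundant chromatin protein gene hmgb2a was at 3567 CPM in mitotic and 1797 CPM in non-mitotic cells, and hmgn2 at 3778 and 2467 CPM. Of the tubulin genes, tuba1b, tubb4b and tubb2b had ratios of 2.57, 2.25 and 2.07. The histone genes named hist1h or hist2h, which as near-identical copies cannot be told apart with certainty, summed to 2553 CPM in mitotic and 476 CPM in non-mitotic cells, and to 4214 and 448 CPM in the library labelled other.

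**Figure D1:**
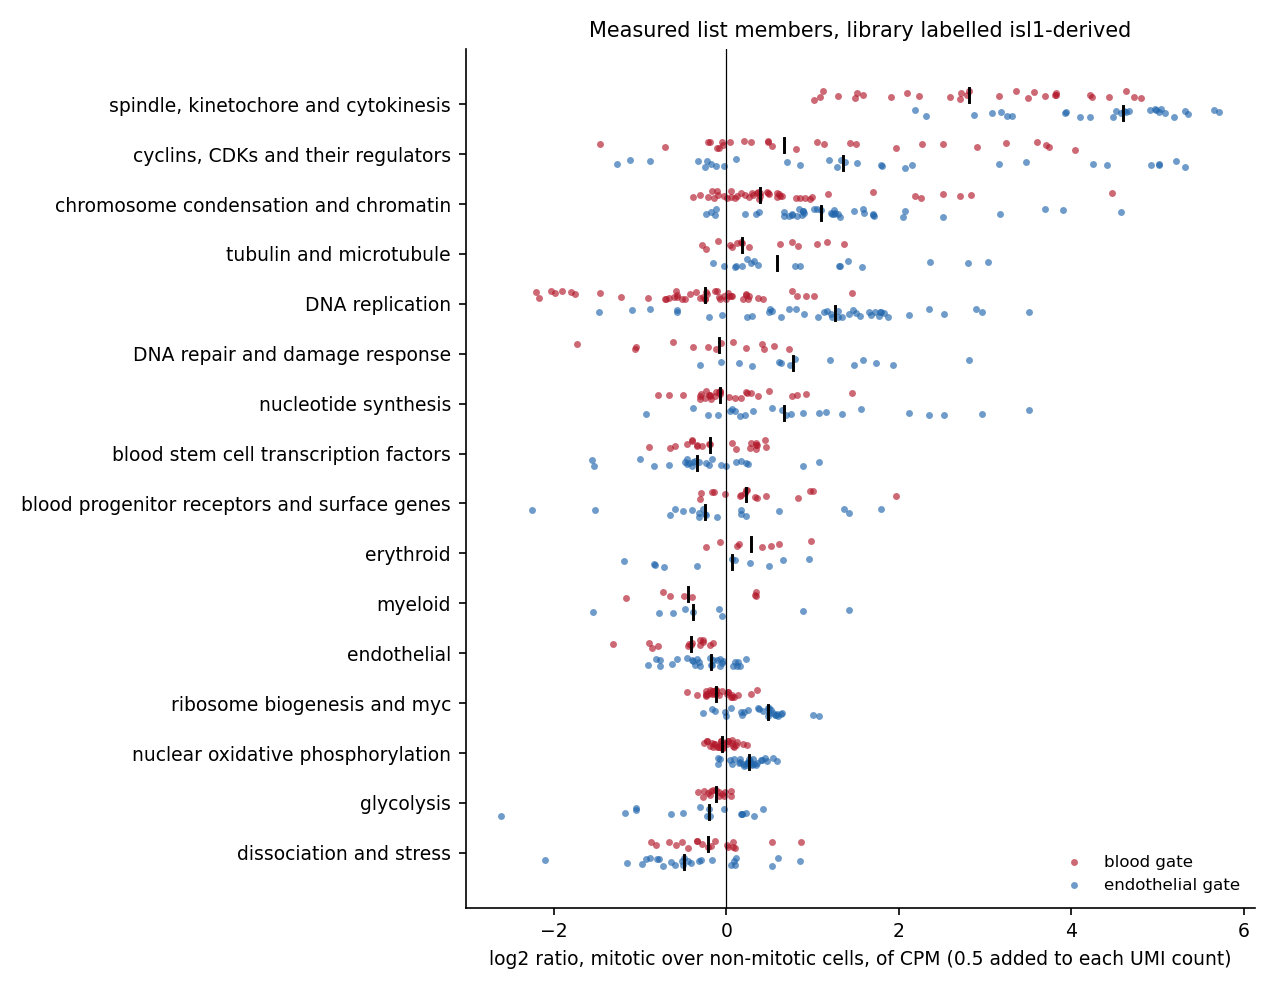
Log2 ratio (x axis) of mitotic over non-mitotic cells for each measured member of 16 gene lists (y axis) in the library labelled isl1-derived, with the blood gate in red above the endothelial gate in blue, a black bar at each median and the genes of the gates left out. Spindle genes lie right of 0 in both gates, and the DNA replication genes lie on both sides of 0 in blood but mostly right of 0 in endothelial cells.

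More DNA replication genes were lower than higher in the library labelled isl1-derived. Of 49 measured there, 5 were at least 1.5-fold higher and 15 at least 1.5-fold lower in mitotic blood cells. Of all genes 6.43% were higher and 6.38% lower, so the count of higher ones was not far from that share. Their median log2 ratio was -0.25. Summed over all 52 list genes, measured or not, mitotic cells had 4948 CPM and non-mitotic cells 5968 CPM. In the library labelled other the sums went the other way, at 7886 and 6029 CPM. The medians per cell there were 99.6 and 47.3 per 10000, against 40.7 and 55.9 in the library labelled isl1-derived. Of the 5 that were higher with the isl1-derived label, rrm1, rrm2, dut and tk1 act in nucleotide supply, and cdc45 (2.02), named after its value was seen, is a subunit of the replicative helicase. With a mitotic minimum of 6 per 10000 the log2 ratio of tk1 was -0.0099. The helicase genes mcm2, mcm3, mcm4, mcm5 and mcm6 had ratios between 0.215 and 0.286, and mcm7 had 0.611. For mcm5 this was 54.3 CPM in mitotic and 253 CPM in non-mitotic cells (0.174 to 0.263), with a UMI in 38 of 61 and 197 of 217 cells.

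The genes mcmbp, an MCM-binding protein (0.281), gins2 of the replicative helicase (0.294) and orc6 of the origin recognition complex (0.358) were low in the same way. So were cdca7a (0.220) and its partner, the chromatin remodeller hells (0.373), the remodeller smarcad1a (0.278) and the mismatch repair gene msh6 (0.297). On the DNA repair list 1 of 14 measured genes was at least 1.5-fold higher, xrcc5 of the Ku heterodimer (1.65), and 4 were at least 1.5-fold lower, where 6.38% of all genes were. Outside replication, the leading lower genes were the intermediate filament gene vim (0.177), found in 9 of 61 mitotic and 55 of 217 non-mitotic cells, and tnni4b.2 (0.176), found in 11 and 71.

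Among the genes of nucleotide supply, the ribonucleotide reductase subunit rrm2 was at 484 CPM in mitotic and 176 CPM in non-mitotic cells (2.76, 2.51 to 3.03), rrm1 at 236 and 139 CPM (1.70), and dut, which removes dUTP, at 547 and 289 CPM (1.90). The sliding clamp gene pcna was at 817 and 897 CPM (0.911, 0.859 to 0.965). The library labelled other had pcna at 1126 CPM in mitotic and 897 CPM in non-mitotic cells (1.26, 1.02 to 1.54), so its direction differed between libraries.

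Summed over mcm2 to mcm7 in the library labelled isl1-derived, mitotic blood cells had 542 CPM (510 to 576) and non-mitotic blood cells 1634 CPM (1599 to 1671), a ratio of 0.332 (0.311 to 0.354). The sums of the library labelled other were 891 and 1597 CPM, a ratio of 0.558 (0.455 to 0.680). The order was thus the same in both libraries. Cell by cell with the isl1-derived label, the median was 4.56 UMIs per 10000 in mitotic and 16.6 in non-mitotic cells. Only 1 of 61 mitotic cells lay above the non-mitotic median. The mitotic cells ran from 0.417 to 21.2 and the non-mitotic ones from 0 to 36.0, so the ranges overlapped although the medians were far apart. For the spindle list the medians were 25.3 and 2.82 per 10000, and all 61 mitotic cells lay above the non-mitotic median. In the library labelled other the mcm medians were closer, at 9.68 and 15.5 per 10000. The ranges there were 2.72 to 25.2 and 0 to 38.2. Above the value of 16.6 lay 2 of its 7 mitotic and 7 of its 17 non-mitotic cells.

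**Figure D2:**
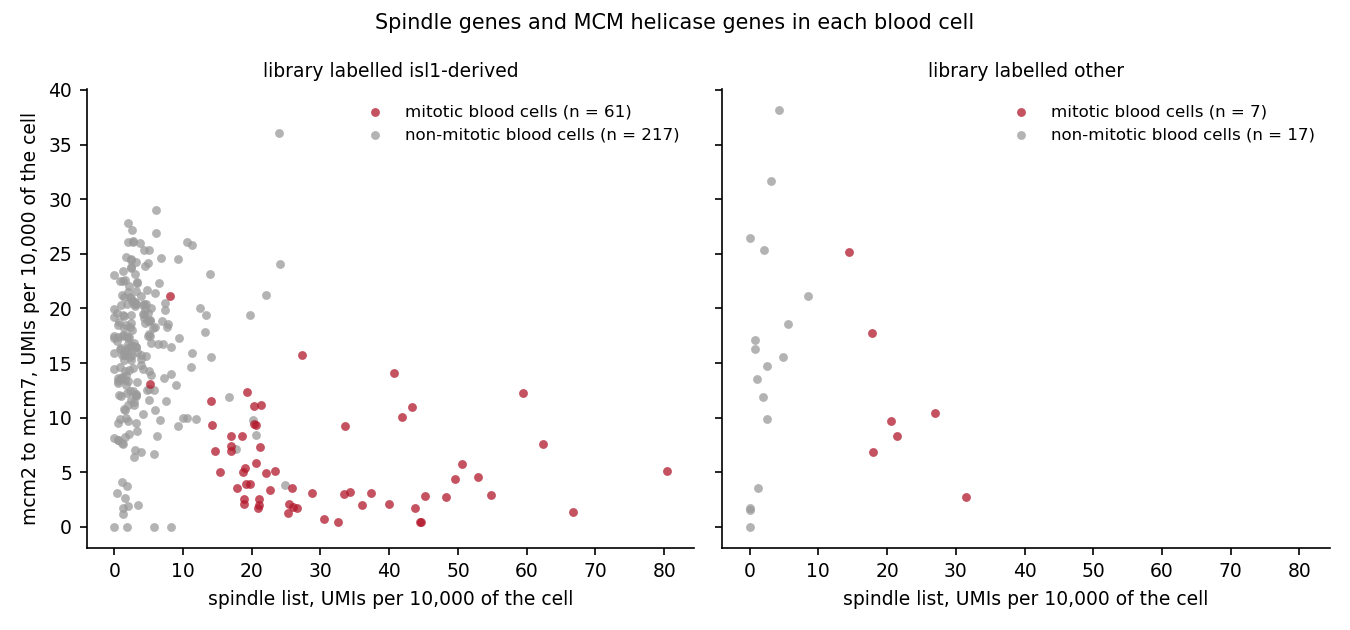
Each point is 1 blood cell, with its spindle list UMIs per 10000 (x axis) and its mcm2 to mcm7 UMIs per 10000 (y axis), for mitotic cells in red and non-mitotic cells in grey, in the library labelled isl1-derived (left) and the library labelled other (right). In the left panel 1 of 61 mitotic cells lies above the non-mitotic mcm median of 16.6. In the right panel 2 of 7 mitotic and 7 of 17 non-mitotic cells lie above that same value.

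The order of these genes showed more finely when all 278 blood cells of the library labelled isl1-derived were placed by their sum of nusap1, top2a and mki67. The steps were 0, above 0 to 1, 1 to 3, 3 to 6, 6 to 10, and 10 or more per 10000, with 84, 78, 55, 25, 21 and 15 cells. The gene mcm5 was at 222, 265 and 272 CPM over the 3 non-mitotic steps and at 78.2, 19.6 and 70.2 CPM over the 3 mitotic ones. The clamp pcna was at 684, 805, 1259, 1202, 718 and 394 CPM, highest on both sides of the minimum. The nucleotide gene rrm2 was at 69.0, 51.7, 458, 771, 412 and 167 CPM, and the histone gene hist1h4l at 149, 273, 717, 2499, 2322 and 1348 CPM.

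The mitosis genes ccnb1 and cdc20 went on up to the last step. Cyclin B1 was at 6.84, 8.16, 23.3, 112, 192 and 347 CPM, and cdc20 at 2.49, 9.79, 16.2, 50.3, 130 and 258 CPM. The S-phase genes rrm2 and hist1h4l were thus highest just inside the minimum, and ccnb1 and cdc20 in the last step, which rests on 15 cells. The steps were made from the gate's own genes, so these values are a description. They also differ in depth, with a median of 19989 UMIs per cell in the lowest step and 35205 in the highest.

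**Figure D3:**
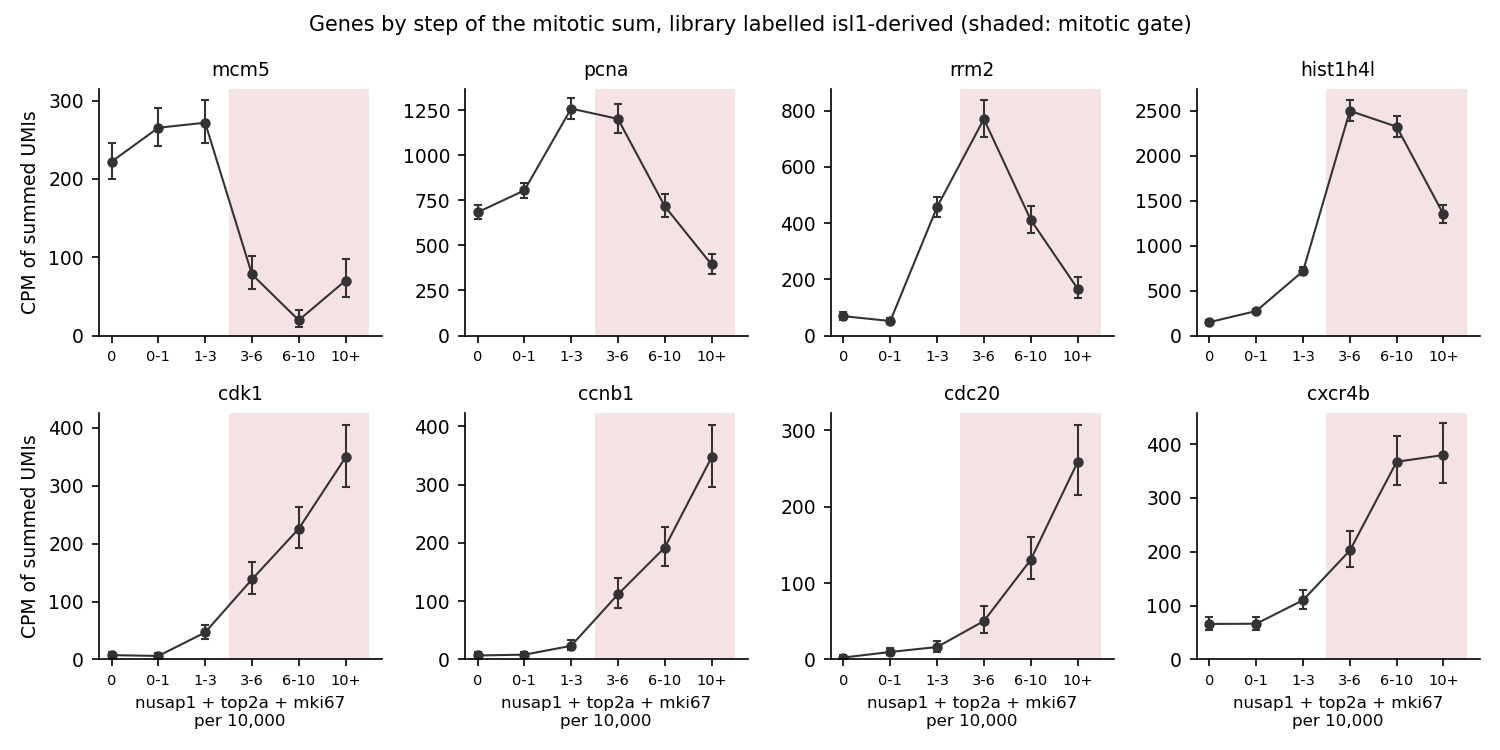
CPM (y axis, from 0) of 8 genes over the steps of nusap1, top2a and mki67 per 10000 (x axis) in the blood cells of the library labelled isl1-derived, with 95% counting intervals as bars and the steps of the mitotic gate shaded. The gene mcm5 is lower from the minimum on, rrm2 and hist1h4l are highest in the step above it, and cdk1, ccnb1, cdc20 and cxcr4b are highest in the last steps.

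The 61 cells were therefore not uniform. At a minimum of 3 per 10000, chosen after the values were seen, 25 of them held rrm2 alone, 24 held ccnb1, cdc20 and plk1 together alone, 3 held both and 9 held neither. Among the 217 non-mitotic cells the counts were 25, 6, 1 and 185. Of the 7 mitotic cells in the library labelled other, 6 held rrm2 alone and 0 reached the minimum for the late genes, with 2.33 per 10000 as the highest. The name mitotic is thus that of the gate, since many of its cells held the S-phase gene rrm2 without reaching the minimum for the late genes. In mitotic cells ccnb1 was at 201 CPM in the library labelled isl1-derived and at 46.9 CPM, from 7 UMIs, in the library labelled other.

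Most blood transcription factors lay within 1.5-fold, as did most of all measured genes. Outside the gate's own genes, 0 of 21 measured factors were at least 1.5-fold higher and 3 were at least 1.5-fold lower, against 6.43% and 6.38% of all genes, with a median log2 ratio of -0.19. For a list of 21 genes those shares come to few genes, so the counts do not set the factors apart. The myeloid factor cebpa was at 232 CPM in mitotic and 182 CPM in non-mitotic cells (1.27, 1.13 to 1.43), cebpb at 1556 and 1225 CPM (1.27), and cbfb, the partner of the Runx factors, at 202 and 167 CPM (1.21). The lymphoid and stem cell factor ikzf1 was at 89.3 and 82.7 CPM (1.08). Lower were hhex, a homeobox gene of blood and endothelium, at 76.8 CPM in mitotic and 121 CPM in non-mitotic cells (0.634, 0.525 to 0.761), and the LIM cofactor gene ldb1a (0.528). The log2 ratio of hhex was 0.0042 when cells were thinned to 5000 UMIs before gating, so its direction was lost there. The gene lmo2, an adaptor of the blood factor complex, was at 191 and 233 CPM (0.820, 0.727 to 0.923).

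Among receptors and surface genes, 4 of 17 measured were at least 1.5-fold higher and 0 lower, against 6.43% and 6.38% of all genes. The largest ratio was that of cxcr4b, the receptor of the chemokine Cxcl12, which in vertebrates holds blood progenitors in their niche. In the library labelled isl1-derived it was at 309 CPM in mitotic and 79.0 CPM in non-mitotic cells (ratio 3.91, 3.43 to 4.46). The library labelled other had 442 and 86.5 CPM (ratio 5.11, 3.11 to 8.70). A single cell held 14.6% of the mitotic UMIs in the library labelled isl1-derived and 90.9% in the library labelled other, where 5 of 7 mitotic cells had a UMI. That cell of the library labelled other held 60 of the 66 mitotic cxcr4b UMIs. It was the deepest of the 7 and also held all their UMIs of the lysozyme gene lyz. The ratio of 5.11 thus rests on 1 cell, and the direction among the rest was not tested.

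The gene was not even among the 61 cells, with a median of 0.847, an upper quartile of 3.67 and a highest value of 21.4 UMIs per 10000, against 0.305, 0.668 and 15.0 in the 217 non-mitotic cells. A UMI was found in 48 of 61 mitotic and 112 of 217 non-mitotic cells, and in 44.3% (27 of 61) and 21.3% (44 of 207) after thinning to 5000 UMIs. Over the steps it was at 65.9, 66.4, 110, 202, 367 and 380 CPM. In endothelial cells of the same library cxcr4b was at 87.7 CPM in mitotic and 139 CPM in non-mitotic cells (0.632, 0.493 to 0.800), so it was higher with the mitotic genes in blood and lower with them in endothelium. Whether these ratios differ beyond the spread between libraries was not tested.

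The other genes of that group that were higher had smaller ratios. The pan-leukocyte phosphatase gene ptprc (CD45) was at 100 CPM in mitotic and 50.0 CPM in non-mitotic cells (2.01, 1.65 to 2.44), and at 161 and 23.6 CPM in the library labelled other, where 1 cell, the same one as for cxcr4b, held 58.3% of the 24 mitotic UMIs. The adhesion receptor gene adgrg1 was at 154 and 87.0 CPM (1.77, 1.52 to 2.06), but at 53.6 and 146 CPM in the library labelled other. The thrombopoietin receptor gene mpl was at 29.8 and 15.2 CPM (1.96), with 28.1% of its mitotic UMIs in 1 cell. When cells were thinned to 5000 UMIs before gating, the log2 ratio of mpl was -0.62, the other way. The leukocyte actin regulators coro1a (1.17) and lcp1 (1.26) had ratios near 1.

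**Figure D4:**
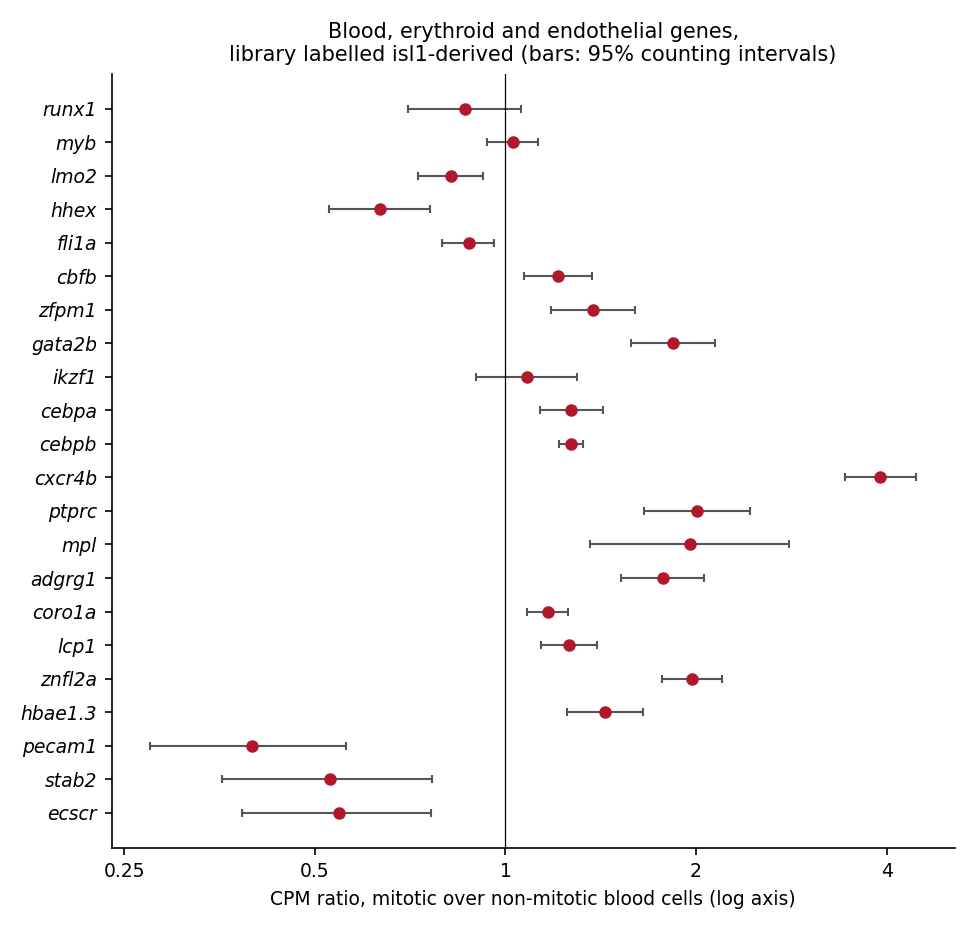
CPM ratio of mitotic over non-mitotic blood cells (x axis, log scale) for 22 named genes (y axis) in the library labelled isl1-derived, with 95% counting intervals as bars. The gene cxcr4b has the largest ratio at 3.91, myb lies at 1.03, and the endothelial genes pecam1, stab2 and ecscr lie at 0.397, 0.529 and 0.546.

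Lineage genes gave no common direction. On the erythroid list 2 of 8 measured genes were at least 1.5-fold higher, against 6.43% of all genes. They were znfl2a (304 CPM in mitotic and 154 CPM in non-mitotic cells) and the haemoglobin gene hbbe1.2, which had 36.9% of its mitotic UMIs in 1 cell and a log2 ratio of -0.015 with a mitotic minimum of 6 per 10000. The library labelled other had znfl2a at 46.9 and 216 CPM, the other way. With the isl1-derived label, the myeloid list had 0 of 8 genes at least 1.5-fold higher and 3 lower, where 6.38% of all genes were. Among the 3 was lyz, the lysozyme gene of neutrophils and macrophages, at 296 and 663 CPM. The lyz values rest on few cells, since 1 cell held 82.9% of the mitotic and 1 cell 69.4% of the non-mitotic UMIs. The median of lyz per cell was 0.470 in mitotic and 0.393 in non-mitotic cells, per 10000. In the library labelled other the myeloid list went the other way. All 5 measured genes were at least 1.5-fold higher there, where 9.69% of all genes were, with ratios from 2.01 to 383. These values lean on 1 of the 7 mitotic cells, which held all 225 mitotic lyz UMIs and alone brought lyz over the UMI minimum. Over 10 myeloid markers the highest of the 7 cells had 70.8 UMIs per 10000, where their median was 4.28. The myeloid master factor spi1b was seen in 5 of 61 mitotic cells, with 88.9% of its UMIs in 1 of them. The macrophage receptor gene csf1ra, the factor irf8 and the lymphoid gene rag1 had 0 UMIs in mitotic cells.

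Markers of other cell types were also followed. The 17 endothelial markers summed to 268 CPM in mitotic and 410 CPM in non-mitotic blood cells of the library labelled isl1-derived, all 17 with a UMI in both, against 13567 CPM in mitotic endothelial cells. On the wider endothelial list 4 of 14 measured genes were at least 1.5-fold lower in mitotic blood cells, where 6.38% of all genes were, and 0 higher, with pecam1 at 19.9 and 50.0 CPM (0.397), ecscr at 22.5 and 41.1 CPM (0.546) and the scavenger receptor gene stab2 at 18.3 and 34.6 CPM (0.529). The median per cell of the endothelial list was 8.81 in mitotic and 10.3 in non-mitotic cells, per 10000. Without the 20% of gate cells highest in endothelial genes, a setting chosen after seeing the data, 51 genes in place of 85 were at least 2-fold lower in mitotic cells. Neural markers summed to 2.09 and 1.44 CPM, with isl1 at 0 in both. Of the keratinocyte and mesenchyme genes, icn and krt8 were measured, with ratios of 0.592 and 0.575, and they were more abundant in non-mitotic endothelial cells of the same library, at 2083 and 2921 CPM. The part of free or endothelial RNA in these ratios was not tested.

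The measured growth and energy genes stayed within 1.5-fold between mitotic and non-mitotic blood cells of the library labelled isl1-derived. Of 28 ribosome biogenesis and myc genes measured, 0 were beyond 1.5-fold either way, where 6.43% of all genes were higher and 6.38% lower. Nucleolin (ncl) was at 1372 and 1316 CPM and nucleophosmin (npm1a) at 1634 and 1890 CPM. The same held for 15 glycolysis genes, 30 nuclear genes of oxidative phosphorylation and 81 ribosomal protein genes. For a list as short as the 15 glycolysis genes, those shares come to few genes. In the library labelled other, 5 of 13 measured ribosome biogenesis genes were at least 1.5-fold lower in mitotic cells, where 6.78% of all genes were, and npm1a was at 1085 and 1754 CPM. Genes induced by tissue dissociation gave 1 of 19 higher and 3 lower by 1.5-fold, against 6.43% and 6.38% of all genes, with jun at 128 and 225 CPM and socs3a at 157 and 287 CPM.

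The same contrast was drawn in endothelial cells of the library labelled isl1-derived, where it had 8322 measured genes, of which 11.5% were at least 1.5-fold higher and 17.1% lower (4.33% and 6.51% by at least 2-fold). Spindle genes were higher in both, all 29 measured with a median log2 ratio of 2.81 in blood and all 28 measured with 4.60 in endothelial cells. Both counts carry the limit of the UMI minimum given above. The replication genes, taken as a list, were not alike. In mitotic blood cells 5 of 49 were at least 1.5-fold higher and 15 lower, where 6.43% and 6.38% of all genes were. In mitotic endothelial cells 30 of 42 were higher and 5 lower. The mcm2 to mcm7 sum, however, was lower in mitotic cells of both gates. Its ratio was 0.332 in blood and 0.736 in endothelium (0.633 to 0.850). In the library labelled other that ratio was 0.558 in blood and 1.32 in endothelium (1.01 to 1.71). With the isl1-derived label, the clamp pcna had a ratio of 0.911 in blood, against 3.31 in endothelium (2.99 to 3.65), where it was at 608 CPM in mitotic and 184 CPM in non-mitotic cells. The ratio of rrm2 was 2.76 in blood and 11.4 in endothelium. In blood cells of the library labelled other, 3 of 5 measured replication genes were at least 1.5-fold higher and 0 lower, where 9.69% and 6.78% of all genes were. Only these 5 of the 52 list genes passed the UMI minimum there, rrm2 mainly through the mitotic cells with 143 against 48 UMIs.

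The cells below the minimum were also unlike. Non-mitotic blood cells had 5.16 times the mcm2 to mcm7 level of non-mitotic endothelial cells (1634 against 317 CPM, 4.95 to 5.37) and 4.88 times the pcna level. Mitotic blood cells had 542 CPM of mcm2 to mcm7 against 233 CPM in mitotic endothelial cells (2.33, 1.99 to 2.73). Likewise, non-mitotic blood cells of the library labelled other had 6.86 times the mcm level of non-mitotic endothelial cells, and mitotic blood cells 2.89 times that of mitotic endothelial cells. Whether blood and endothelium differ in these ratios beyond the spread between libraries was not tested.

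**Figure D5:**
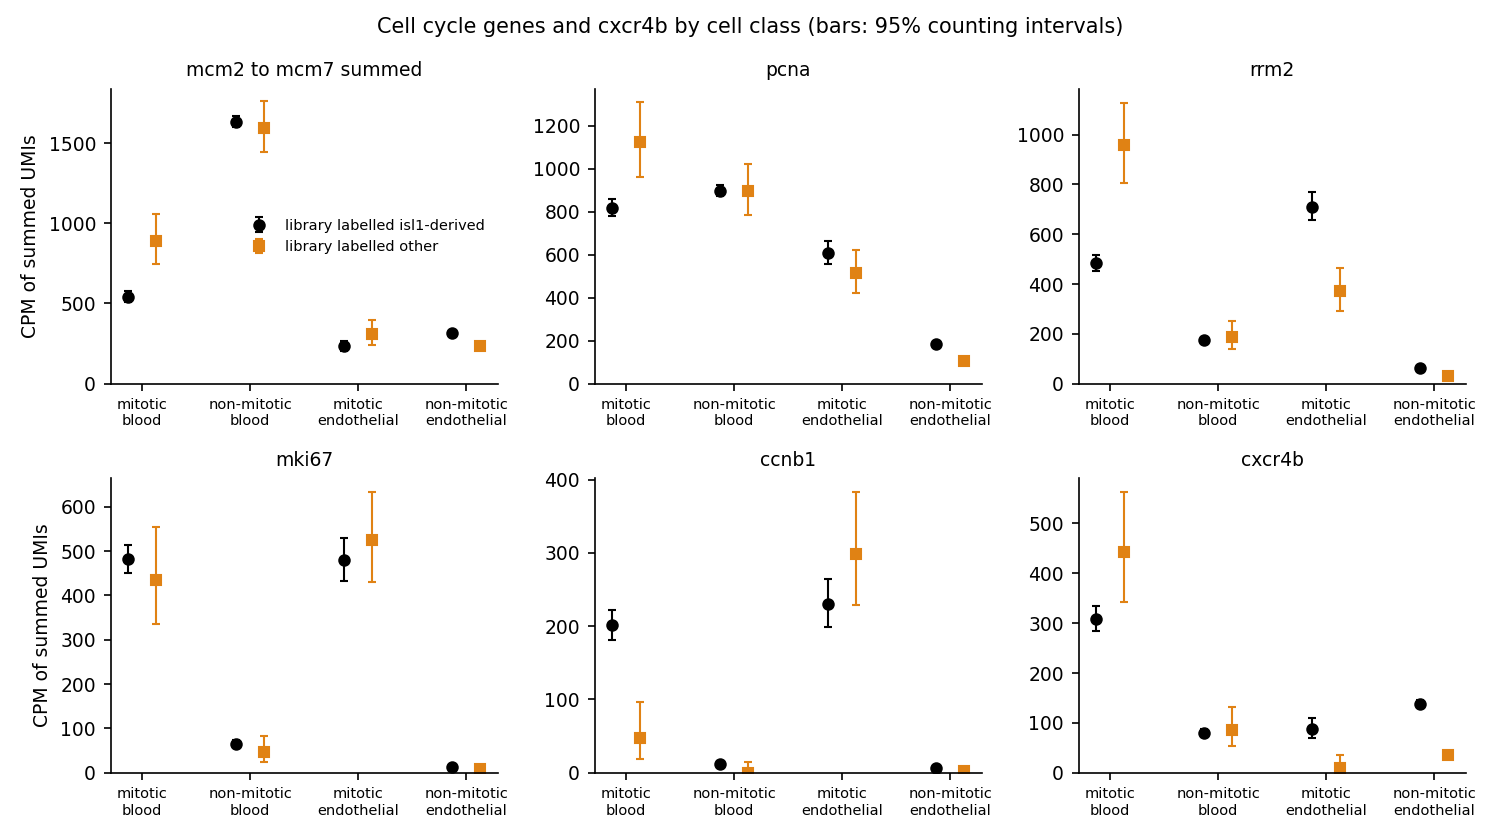
CPM (y axis, from 0) of the mcm2 to mcm7 sum, pcna, rrm2, mki67, ccnb1 and cxcr4b in 4 cell classes (x axis), for the library labelled isl1-derived (black circles) and the library labelled other (orange squares), with 95% counting intervals as bars. The mcm sum is highest in non-mitotic blood cells of both libraries, cxcr4b is highest in mitotic blood cells of both, and mki67 is shown as a gene of the gate.

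Set directly against mitotic endothelial cells, over 3253 measured genes of which 28.8% were at least 1.5-fold higher and 29.2% lower, mitotic blood cells were richer in growth genes. Of 27 ribosome biogenesis and myc genes, 25 were at least 1.5-fold higher in blood, with npm1a at 1634 CPM in mitotic blood and 317 CPM in mitotic endothelial cells, and 55 of 81 ribosomal protein genes were as well. They were poorer in genes of mitosis, since 25 of 38 spindle genes were at least 1.5-fold lower, with cdc20 at 133 and 299 CPM and plk1 at 120 and 296 CPM. All 26 measured endothelial genes were lower in blood. The mitotic blood cells had a median of 33699 UMIs and the mitotic endothelial cells 7936, and the part of depth was not tested.

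The mitotic blood cells of the 2 libraries, 61 and 7 cells, were last compared with each other. In the library labelled isl1-derived, 134 of 2241 measured genes (5.98%) were higher by at least 2-fold and 59 (2.63%) lower, and with TMM scaling, which moves each log2 ratio up by 0.31, these were 274 and 20. On the replication list 16 of 29 measured genes were at least 1.5-fold lower in the library labelled isl1-derived, where 10.7% of all genes were, and 0 were higher, with rrm2 at 484 and 958 CPM. On the spindle list 10 of 21 were at least 1.5-fold higher, where 16.3% of all genes were, with cdc20 at 133 and 33.5 CPM. The UMI minimum favours this count, since members passed it mainly through the 61 cells, as cdc20 did with 254 and 5 UMIs. The count is therefore a description. Summed over the 50 spindle genes found in the data, measured or not, the levels were 3024 and 2238 CPM. The median log2 ratios of the measured replication and spindle genes were -0.71 and 0.50, and both keep their sign with the TMM shift. The blood genes znfl2a (304 and 46.9 CPM) and gata2b (156 and 26.8 CPM) had higher levels with the isl1-derived label, where the 7 cells of the library labelled other held 7 and 4 UMIs.

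The 7 cells differed strongly from each other. The deepest, with 36299 UMIs, held all 225 lyz UMIs and 59 of the 85 UMIs of srgn, a granule proteoglycan gene, together with all 3 gate blood genes, and no other of the 7 had a lyz UMI. The pair of shallowest cells, with 11827 and 5557 UMIs, passed the mitotic minimum on mki67 alone, with 10 and 4 UMIs. Ratios in the library labelled other therefore rest on single cells more often than those in the library labelled isl1-derived.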

How the data were processed

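The authors deposited raw UMI counts, 1 matrix of genes by barcodes for each library, from Cell Ranger on GRCz11 (version 5.0.0 per the submitters' processing notes, 5.0.1 per the file headers). Per the labels' protocols, tails were dissociated with enzymes before sorting. Groups came from the sample labels. Features with 1 symbol were summed, so near-identical copies cannot be told apart, and antisense partners were not examined.

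The rule of the gate can be read in more than 1 way. Here every gate sum was scaled to 10000 UMIs of the cell. With the blood genes and gata1a read as plain UMIs, 106 of 424 and 12 of 34 gate cells were mitotic. Scrublet in scanpy 1.11.5 called 7 and 6 of the kept barcodes as doublets, a low share that leaves doublets possible, and 0 in the blood gate, so none was removed.

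UMIs were summed per library and class and given as CPM with exact Poisson intervals, shares with Clopper-Pearson intervals, and ratios with exact conditional binomial intervals, all at 95%. Before taking log2 ratios, 0.5 was added to the UMIs of both sums. Genes under 100 UMIs over both sums together were left out as not measured. A gene list was described at 1.5-fold and all genes at 2-fold, which is no call of change. TMM factors came from edgeR 4.0.16 in R 4.3.3. UMIs were thinned with a fixed seed. On simulated counts, genes changed by a known fold were recovered by the ratio step.

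The members and lists were chosen with earlier results of these data known. Named were the gate genes, then for each direction 14 measured genes whose intervals lay farthest from a ratio of 1, with the same direction in both libraries, leaving out clone names and mitochondrial and ribosomal protein genes. From each list the 5 most abundant measured members and the 4 of largest ratio could be named, and some were left out for length. Some genes stand in more than 1 list. The histone sum, the steps, the cut on rrm2 and late genes, the cell classes and single cells were chosen after their values were seen. Alternatives were other barcode filters, doublets left out, plain UMIs in the gate, another mitotic minimum, thinning, TMM, equal weight per cell, other UMI minimums and matched depth.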

Additional observations from a re-analysis of the deposited data

Results flagged for a closer look

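In 3 genes the ratio of mitotic over non-mitotic blood cells pointed opposite ways in the 2 libraries, with intervals on either side of 1, at least 1.5-fold either way. The difference itself was not tested. For the zinc finger gene blf it was 1.74 among cells of the library labelled isl1-derived and 0.406 among those of the library labelled other, where 1 cell held 75.6% of its mitotic UMIs. The lysozyme gene lyz had 0.446 and 383 (68.1 to 15205), the second from 225 UMIs in 1 mitotic cell and 1 UMI in the non-mitotic cells. The granule gene srgn had 0.636 and 4.14, the second with 69.4% of its mitotic UMIs in 1 cell. In all, 13 of 413 genes measured in both libraries had intervals on opposite sides of 1.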

How the results depend on the processing

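No paired analysis was possible because each fraction gave 1 library and no result comes from a test. In the library labelled isl1-derived the mitotic share of the gate was 21.9%, and it was 12.95% with a mitotic minimum of 6 per 10000 and 42.1% when the non-mitotic cells were limited to those with 0 UMIs of the 3 genes, both by construction. The count of genes at least 2-fold higher (148) was 231 with the blood genes as plain UMIs, 17 with thinning to 5000 UMIs, and 342 and 43 with at least 30 and 300 UMIs per gene. The count at least 2-fold lower (85) was 131 with the minimum of 6, 50 against cells with 0 UMIs of the 3 genes, 18 with thinning, 391 and 21 with at least 30 and 300 UMIs, and 51 without the 20% of gate cells highest in endothelial genes. The count of genes apart between libraries (193) was 12 with thinning, 294 with TMM factors, and 1119 and 27 with at least 30 and 300 UMIs. Thinning and the UMI minimums change how many genes are measured, and for the other settings the cause was not tested. Of 150 named genes, the log2 ratio turned for hbbe1.2 (-0.015) and tk1 (-0.0099) with the minimum of 6, and for hhex (0.0042), mdm2 (0.47), mpl (-0.62) and rad18 (0.22) with thinning. Many more moved in size without turning. With thinning 88 of the 150 moved and 58 stayed the same. Against cells with 0 UMIs of the 3 genes 64 moved, with the minimum of 6 it was 51, and with plain UMIs 27. In the library labelled other, 67.7% of the genes beyond 2-fold were higher in mitotic cells, and 54.5% with TMM factors. The settings without the 20% highest in endothelial genes and without cells rich in lyz were chosen after seeing the data. The 7 mitotic cells of the library labelled other limit every value from it.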
